A study of Rattus norvegicus with 6 samples.

Results

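Class I antigen presentation was followed here through 10 genes of the rat: RT1-CE5, a class I heavy chain gene of the rat major histocompatibility complex (MHC), B2m, Tap1, Tap2, Tapbp, the immunoproteasome genes Psmb8, Psmb9 and Psmb10, and the proteasome activator genes Psme1 and Psme2. The members were fixed by name with earlier results of these data known, so their counts are not independent of those results. Every probe set that the array annotation gave to exactly 1 of these symbols was used. This yielded 17 of the 31042 probe sets and 10 of the 14217 genes measured. IEC-6 is an established line of rat intestinal epithelial cells that is used as a model of the crypt. Total RNA from control IEC-6 cells and from ShSuz12 IEC-6 cells, 3 independent experiments each, was hybridized to 6 Affymetrix rat genome arrays. Both populations were grown without stimulation in serum-containing DMEM after lentiviral infection and puromycin selection, the ShSuz12 cells with a short hairpin RNA against Suz12 and the control cells, according to the study's text, with a scrambled hairpin. Suz12 is a core subunit of PRC2, the Polycomb complex that trimethylates histone H3 at lysine 27. Its probe set read 8.45, 8.55 and 8.77 in control cells and 5.82, 5.77 and 5.91 in ShSuz12 cells, so the targeted transcript was lower on every ShSuz12 array. Each group is 1 selected cell population, so the spread between its arrays is that between experiments and not between independently made lines.

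Class I molecules show peptides from inside the cell to CD8 T cells. Proteasomes cut the proteins, the TAP transporter carries the peptides into the endoplasmic reticulum, and a loading complex fits them into a heavy chain paired with beta-2-microglobulin. Interferons raise most genes of this route and exchange the constitutive catalytic subunits of the proteasome for those of the immunoproteasome.

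In ShSuz12 cells, 9 of the 10 genes were higher at their brightest probe set (adjusted p under 0.05 from limma, over all probe sets), against 17.1% of all genes, and Psmb10 was the exception. The rise was steepest for the RT1-CE5 heavy chain, at 7.06-fold, and reached 3.60-fold for Psmb8 and 2.22-fold for Psmb9. It was smaller for Tap1, Tapbp, B2m and Tap2, at 1.70-fold or less, and smallest for Psme1 and Psme2, at 1.23-fold and 1.16-fold. This order holds for the brightest probe sets, and the other B2m probe set rose 2.14-fold. Of 8 fibroblast markers 5 were at least 2-fold higher, against 3.82% of all genes, and Col1a1, Pdgfra and Thy1 did not pass. The part of these markers in the result was not tested. In bulk RNA of this kind, a change in the share of cells of a type and a change in RNA per cell cannot be told apart. The plot of values on each array shows these steps beside the spread between experiments.

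**Figure D1:**
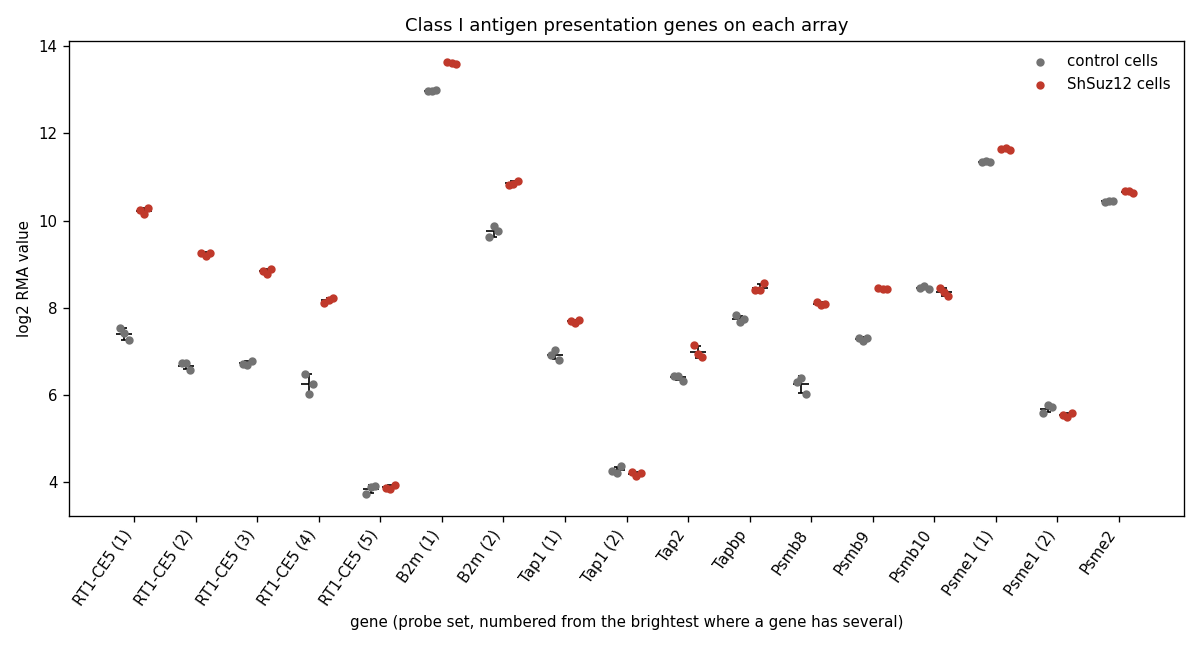
Log2 RMA values (y axis) of the 17 probe sets of the 10 genes (x axis, numbered from the brightest where a gene has several) on the 3 control arrays in grey and the 3 ShSuz12 arrays in red, with black bars for the mean and the standard deviation. The groups separate widely at 4 RT1-CE5 probe sets, at Psmb8 and at Psmb9, by small steps at Psme1 (1) and Psme2, and overlap at RT1-CE5 (5), Tap1 (2) and Psmb10.

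Counted by probe set, 7 of 17 rose by 2-fold or more in ShSuz12 cells (adjusted p under 0.05 from limma), against 3.1% of all probe sets. At any size 13 of 17 were higher, against 14.8% of all, and 4 did not pass. None was lower by limma, at 2-fold or at any size, against 0.396% and 19.5% of all probe sets, and the methods' t-test gave 0 lower as well. At an unadjusted p under 0.05 from limma, 1 was lower, the dimmer Psme1 probe set. On 13 of 17 probe sets every ShSuz12 value lay above every control value, against 19.4% of all, and on 1 every ShSuz12 value lay below, against 28.1% of all. Over the 10 genes at their brightest probe sets the median log2 fold change was 0.67, against -0.05 over all 14217 genes. By gene, 3 of 10 were 2-fold higher or more (RT1-CE5, Psmb8 and Psmb9), against 3.82% of all genes. The ShSuz12 arrays had slightly higher medians than the control arrays, by 0.10 on the log2 scale. Every log2 fold change given here would thus be 0.10 lower relative to the median of its array. The median log2 fold change over all probe sets had the other sign, at -0.05, so the 2 ways of centring would shift the values in opposite directions.

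Promoters of genes of the class I route are known for short elements through which interferon and NF-kappaB signalling act, and they are shown here because most of the genes rose together. RefSeq promoter windows of the GRCr8 assembly, from 250 bases before to 50 bases after the start site, were found for all 10 genes. Besides those given in full further on, they lay at chr3:129549080-129549379 (B2m, plus strand), chr20:4668494-4668793 (Tap1, minus), chr20:4652247-4652546 (Tap2, minus), chr20:4967828-4968127 (Tapbp, minus), chr20:4668750-4669049 (Psmb9, plus), chr15:33038721-33039020 (Psme1, plus) and chr15:33052702-33053001 (Psme2, minus). The core of the interferon-stimulated response element, GAAANNGAA, was searched on both strands and occurred in 7 of the 10 windows, against 9.71% of 33469 rat promoter windows. Each match is written below with its flanks, 5′ to 3′ on the strand of the match, with the core in capitals.
B2m: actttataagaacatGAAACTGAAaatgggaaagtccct
Tap1: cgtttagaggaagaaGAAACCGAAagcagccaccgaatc
Tap2: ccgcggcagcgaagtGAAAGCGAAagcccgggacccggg
Tapbp: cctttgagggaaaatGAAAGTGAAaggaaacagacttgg
Psmb8: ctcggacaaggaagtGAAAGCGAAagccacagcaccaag
Psmb10: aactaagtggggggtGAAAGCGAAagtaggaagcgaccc
Psme2: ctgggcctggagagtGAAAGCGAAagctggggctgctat
The core letters were the same, GAAAGCGAA, in Tap2, Psmb8, Psmb10 and Psme2, whereas B2m, Tap1 and Tapbp differed from them within the core. Tapbp held 1 more match that overlaps the one shown, and Psmb10 held 2 more. The match began at base -150 from the start site in B2m, -120 in Tap1, -53 in Psme2, -41 in Tap2, -20 in Tapbp and -17 in Psmb10, and it crossed the start site in Psmb8, from -3 to 6. Tap1 and Psmb8 carried it on the minus strand of the gene.

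The windows of RT1-CE5, Psmb9 and Psme1 did not hold these letters. Other spellings of the element, and matches cut by a window edge, were not searched, so these windows are not shown to lack it. That of Psmb10 held 3 matches. A relation between the matches and the changes was not tested. The full windows of RT1-CE5 (chr20:3484041-3484340, minus strand), Psmb8 (chr20:4656982-4657281, minus strand) and Psmb10 (chr19:50743243-50743542, minus strand) are given because they set the heavy chain with the steepest rise beside the immunoproteasome gene that rose most and the one that did not pass the test. Each runs 5′ to 3′ on the strand of the gene, with any match to GAAANNGAA, on either strand, in capitals.
RT1-CE5: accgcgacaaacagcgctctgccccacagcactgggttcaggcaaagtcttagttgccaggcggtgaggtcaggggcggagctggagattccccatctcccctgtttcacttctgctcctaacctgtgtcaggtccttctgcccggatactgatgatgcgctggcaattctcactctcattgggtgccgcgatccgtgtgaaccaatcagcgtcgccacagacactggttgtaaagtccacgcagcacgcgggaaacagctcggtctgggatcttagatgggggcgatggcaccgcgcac
Psmb8: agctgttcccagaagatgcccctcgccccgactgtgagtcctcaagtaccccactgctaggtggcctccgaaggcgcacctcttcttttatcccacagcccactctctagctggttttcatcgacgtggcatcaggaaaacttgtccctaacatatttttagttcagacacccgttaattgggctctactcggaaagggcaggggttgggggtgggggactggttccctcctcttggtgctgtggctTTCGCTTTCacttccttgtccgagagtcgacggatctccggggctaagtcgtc
Psmb10: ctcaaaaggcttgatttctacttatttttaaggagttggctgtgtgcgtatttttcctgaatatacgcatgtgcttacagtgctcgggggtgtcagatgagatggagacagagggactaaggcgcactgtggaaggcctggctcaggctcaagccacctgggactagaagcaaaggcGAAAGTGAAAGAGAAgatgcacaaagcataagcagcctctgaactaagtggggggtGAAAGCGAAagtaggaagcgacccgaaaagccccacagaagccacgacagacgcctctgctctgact
The NF-kappaB consensus (GGG, a purine, any 2 bases, 2 pyrimidines, CC) was searched on both strands. It matched in the windows of RT1-CE5, B2m, Tap1 and Tapbp, 4 of 10, against 7.51% of all windows. A gamma-activated sequence, TTCNNNGAA, matched in Psmb8, 1 of 10 against 8.87%, and a cAMP response element core, TGACG, in B2m and Psmb9, 2 of 10 against 21.2%. CpG dinucleotides numbered 7 (Psme2) to 22 (Tapbp) per window, with a median of 7 over all windows. A match is a run of letters and was not tested for binding, and a missing match says only that these letters are not in this window.

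The heavy chain came first in size. RT1-CE5 encodes a class I heavy chain. Its brightest probe set (1371209_at) read 7.54, 7.41 and 7.27 on the control arrays and 10.24, 10.15 and 10.28 on the ShSuz12 arrays. The groups were far apart, with a log2 fold change of 2.82 (SE 0.08, adjusted p = 1.28e-07 from limma). A second probe set (1388255_x_at) read 6.72, 6.72 and 6.57 in control and 9.24, 9.19 and 9.26 in ShSuz12 cells, a rise of 2.56 (SE 0.06, adjusted p = 5.90e-08 from limma). The third (1370972_x_at) read 6.71, 6.69 and 6.78 against 8.85, 8.78 and 8.88, a rise of 2.11 (SE 0.06, adjusted p = 9.31e-08 from limma). The fourth (1371210_s_at) read 6.49, 6.03 and 6.24 against 8.11, 8.19 and 8.22, a rise of 1.92 (SE 0.11, adjusted p = 6.46e-06 from limma). All 4 thus rose with no overlap, and the control arrays were the more scattered at the fourth. The brightest moved from percentile 64.3 to percentile 93.3 of all probe sets.

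The fifth RT1-CE5 probe set (1388254_a_at) did not follow. It read 3.73, 3.89 and 3.92 in control cells and 3.86, 3.85 and 3.94 in ShSuz12 cells, so the groups overlapped. Its log2 fold change was 0.04 (95% confidence interval -0.12 to 0.19, adjusted p = 0.707 from limma). At the 12.7th percentile of the control arrays it was dim. Class I heavy chain genes of the rat are a multigene family with near-identical members. The RT1-CE5 values may therefore hold signal from other class I genes, and the gene names are uncertain. The suffixes x and s, carried by 1388255_x_at, 1370972_x_at and 1371210_s_at, mark probe sets whose probes can match transcripts of other genes. Neither suffix is carried by the brightest probe set, 1371209_at, or by the dimmest, 1388254_a_at. In addition, 1 probe set that the annotation gives to several symbols including RT1-CE5 rose by 1.42, with no overlap of the groups (adjusted p = 1.86e-05 from limma).

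Other class I heavy chain genes moved in the same direction. Of 11 with a probe set of their own symbol, 9 rose with an adjusted p under 0.05 from limma, against 17.1% of all genes. At least 2-fold higher were 5 of the 11, against 3.82% of all genes, and the median log2 fold change was 0.89. RT1-N2 read 5.58, 5.75 and 5.47 in control and 7.88, 7.90 and 7.91 in ShSuz12 cells, a rise of 2.29. RT1-A, a classical class I gene of the rat, read 5.89, 5.57 and 5.91 against 7.86, 7.75 and 7.91, a rise of 2.05. No value of one group reached the other in either gene. RT1-S3 rose by 1.25 to 1.46 at its 4 probe sets, RT1-T24-4 by 1.24 and RT1-M3-1 by 1.03. RT1-CE12, RT1-CE16, RT1-CE10 and RT1-T24-3 rose by 0.46 to 0.89, less than 2-fold. RT1-A3 (log2 fold change 0.04) and RT1-N3 (0.13) did not pass. Through the shared sequence these genes are not independent of RT1-CE5. Among 6 probe sets that carry several symbols including an RT1 symbol, 2 were at least 2-fold higher, against 3.1% of all probe sets. The one shared with RT1-CE5 was among these 6, and the log2 fold changes ran from -0.04 to 3.34. Of 5 class I-like genes outside the RT1 family 3 were higher, against 17.1% of all genes, the iron regulator Hfe by 0.60, the neonatal IgG receptor gene Fcgrt by 0.56 and the lipid-presenting Cd1d1 by 0.32, whereas Mr1 (0.12) and Azgp1 (-0.14) did not pass.

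B2m encodes the light chain shared by all class I molecules and was already among the brightest signals of control cells. Its brighter probe set (1367595_s_at) read 12.96, 12.96 and 13.00 in control and 13.63, 13.61 and 13.60 in ShSuz12 cells. The step was small but far wider than the spread, with a log2 fold change of 0.64 (SE 0.05, adjusted p = 3.57e-05 from limma). The other (1371440_at) read 9.63, 9.88 and 9.75 against 10.81, 10.84 and 10.90, a rise of 1.10 (SE 0.07, adjusted p = 1.69e-05 from limma). The brighter probe set lay at the 99.5th percentile of the control arrays and the other at the 89.9th, and none of the 6 arrays crossed from one group to the other at either.

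The transporter and its partner rose by less than 2-fold. Tap1 and Tap2 encode the paired chains of the peptide transporter, and Tapbp encodes tapasin, which tethers empty class I molecules to it. Tap1 (1388149_at) read 6.92, 7.02 and 6.81 in control and 7.69, 7.64 and 7.72 in ShSuz12 cells, a rise of 0.77 (SE 0.07, adjusted p = 7.04e-05 from limma). Tap2 (1368732_at) read 6.43, 6.44 and 6.33 against 7.14, 6.93 and 6.88, a rise of 0.58 (SE 0.08, adjusted p = 7.95e-04 from limma). Tapbp (1369726_at) read 7.82, 7.68 and 7.73 against 8.40, 8.40 and 8.57, a rise of 0.71 (SE 0.07, adjusted p = 1.33e-04 from limma). The groups did not overlap in any of the 3. A second Tap1 probe set (1375379_at), dim at the 21.7th percentile, read 4.25, 4.22 and 4.37 against 4.24, 4.15 and 4.21, so that the groups overlapped, with a log2 fold change of -0.08 (95% confidence interval -0.22 to 0.06, adjusted p = 0.330 from limma). It passed as lower after median subtraction (-0.18, adjusted p = 0.0329 from limma).

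Most other genes of peptide trimming and loading did not pass the test. Of 10 listed, 9 were measured, and their median log2 fold change was 0.04. The chaperone genes Calr (0.15), Canx (-0.08) and Pdia3 (0.07) and the trimming peptidase gene Erap1 (0.03) did not pass, although all 4 were bright. Lnpep, another trimming peptidase gene, was dim and had a log2 fold change of -0.38 that did not pass (95% confidence interval -0.85 to 0.09, adjusted p = 0.193 from limma). Tpp2, a cytosolic peptidase, fell by 0.29 (adjusted p = 0.00416 from limma). It was the only one of the 9 that passed, against 23.3% of all genes lower and 17.1% higher.

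The 3 catalytic subunits of the immunoproteasome moved apart. Psmb8 (1367786_at), the inducible chymotrypsin-like subunit, read 6.30, 6.40 and 6.03 in control and 8.13, 8.06 and 8.08 in ShSuz12 cells, a rise of 1.85 (SE 0.09, adjusted p = 3.30e-06 from limma). Psmb9 (1370186_at), the inducible counterpart of Psmb6, read 7.32, 7.23 and 7.32 against 8.45, 8.43 and 8.43, a rise of 1.15 (SE 0.05, adjusted p = 1.84e-06 from limma). Psmb10 (1374033_at), the inducible counterpart of Psmb7, read 8.46, 8.50 and 8.43 against 8.45, 8.36 and 8.27. Psmb8 and Psmb9 were thus clear of the control values on every ShSuz12 array, while Psmb10 overlapped, with a log2 fold change of -0.10 (95% confidence interval -0.24 to 0.04, adjusted p = 0.235 from limma). The upper bound of Psmb10 lies below the rise of Psme2, the smallest that passed. After median subtraction the log2 fold change of Psmb10 was -0.20 and passed as lower (adjusted p = 0.0307 from limma).

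The constitutive subunits Psmb5 and Psmb7 did not rise, and Psmb6 had no probe set of a single symbol. At its brightest probe set Psmb5, which Psmb8 replaces, read 12.27, 12.27 and 12.26 in control and 12.13, 12.13 and 12.09 in ShSuz12 cells. It fell by 0.15 there (adjusted p = 0.0464 from limma). Its dimmer probe sets had log2 fold changes of -0.19 and -0.10 that did not pass (adjusted p = 0.193 and 0.514 from limma). Psmb7, which Psmb10 replaces, read 11.17, 11.08 and 11.13 against 11.03, 10.98 and 10.95, a log2 fold change of -0.14 that did not pass (adjusted p = 0.0796 from limma). Taken within each array, the log2 difference of Psmb8 and Psmb5 increased by 2.00 in ShSuz12 cells (SD 0.184 in control and 0.0384 in ShSuz12 cells, n = 3 each, exact permutation test, two-sided p = 0.1, which is the smallest that 3 arrays against 3 allow, and 0.2 after Benjamini-Hochberg adjustment over 2 pairs). The groups did not overlap in this difference. That of Psmb10 and Psmb7 changed by 0.03 (SD 0.0694 and 0.0514, n = 3 each, exact permutation test, p = 0.6, adjusted 0.6), and the groups overlapped. Of 7 listed constitutive subunits and other proteasome regulators 5 were measured, and all 5 had log2 fold changes between -0.18 and -0.11. Psmb5 and the assembly factor gene Pomp (-0.18) passed the test as lower, against 23.3% of all genes, and the median was -0.14.

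**Figure D2:**
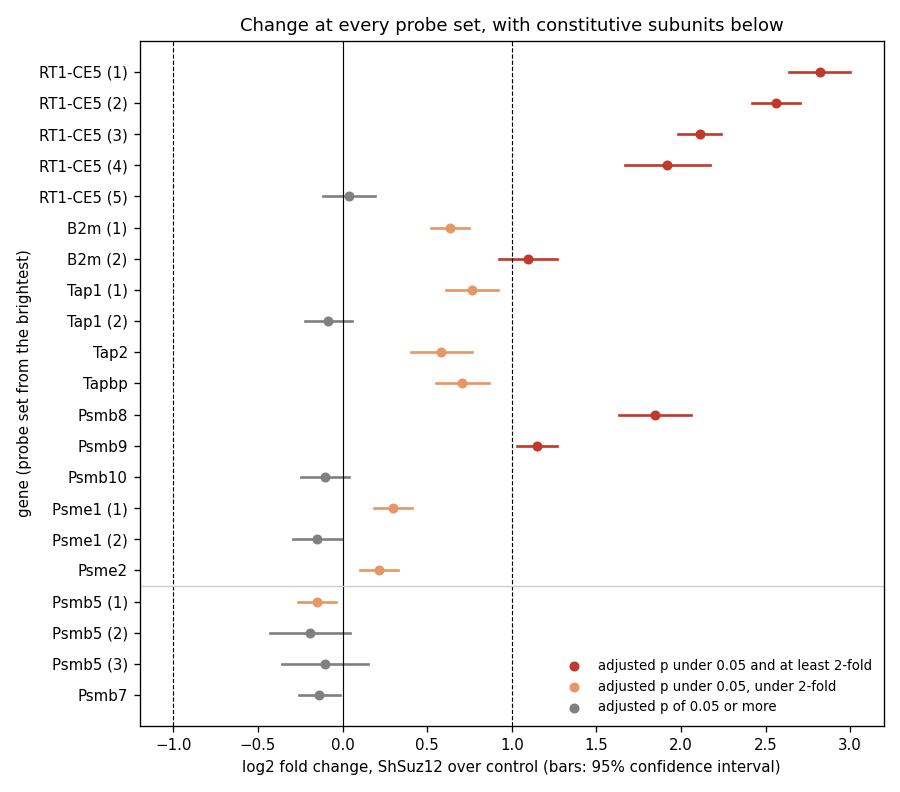
Log2 fold change of ShSuz12 over control cells (x axis, points with 95% confidence intervals) at each of the 17 probe sets (y axis), with the probe sets of Psmb5 and Psmb7 below the grey line and dashed lines at 2-fold. RT1-CE5 reached 2.82 at its brightest probe set and 0.04 at its dimmest, Psmb8 stood at 1.85 and Psmb10 at -0.10, near Psmb5 and Psmb7.

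Psme1 and Psme2 encode the alpha and beta chains of PA28, a ring that opens the proteasome to peptides, and both were bright in control cells. Psme1 (1367663_at) read 11.33, 11.35 and 11.35 in control and 11.63, 11.66 and 11.63 in ShSuz12 cells, a rise of 0.30 (SE 0.05, adjusted p = 0.00211 from limma). Psme2 (1367710_at) read 10.43, 10.46 and 10.45 against 10.67, 10.68 and 10.63, a rise of 0.21 (SE 0.05, adjusted p = 0.0107 from limma). Both steps were small, and the groups did not overlap in either. The call on Psme2 was lost once the medians of the arrays were subtracted (log2 fold change 0.11, adjusted p = 0.0988 from limma). A dimmer Psme1 probe set (1394006_at) read 5.59, 5.76 and 5.72 against 5.54, 5.50 and 5.59, with every ShSuz12 value below the control values by a narrow gap. Its log2 fold change of -0.15 did not pass (SE 0.06, adjusted p = 0.106 from limma), but did after median subtraction (-0.25, adjusted p = 0.0132 from limma).

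Probe sets of 1 gene did not report the same change. The difference between the brightest probe set and each other one was tested over all 6609 same-gene pairs of the array with limma, of which 13.3% differed at an adjusted p under 0.05. Among the 7 such pairs of RT1-CE5, B2m, Tap1 and Psme1, 6 differed. The share over all pairs includes genes without a change, whose pairs have little room to differ, so the 2 shares are not like for like. The RT1-CE5 pairs all share its brightest probe set and are not independent. Differing pairs included probe sets at percentiles 12.7 (RT1-CE5), 21.7 (Tap1) and 44.1 (Psme1) of the control arrays, and changes of dim probe sets are understated. The brightest RT1-CE5 probe set rose by more than the fifth by 2.78 (adjusted p = 7.46e-07 from limma), more than the fourth by 0.90 (adjusted p = 7.81e-04) and more than the third by 0.71 (adjusted p = 0.00165). Its difference from the second, 0.26 (95% confidence interval 0.07 to 0.44), did not pass (adjusted p = 0.0717 from limma). The brighter probe set rose by more in Tap1, by 0.85 (adjusted p = 6.33e-04 from limma), and in Psme1, by 0.44 (adjusted p = 0.00785). In B2m it was the dimmer one that rose more, with a difference of -0.46 (SE 0.09, adjusted p = 0.0109 from limma).

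The genes of Tap2, Psmb8, Tap1 and Psmb9 lie together in the class II region of the MHC on chromosome 20 (GRCr8), in that order, while RT1-CE5 and Tapbp lie elsewhere on that chromosome, B2m on chromosome 3, Psmb10 on chromosome 19, and Psme1 and Psme2 on chromosome 15. Tap1 and Psmb9 are transcribed away from each other from start sites 457 bases apart, and their promoter windows share 44 bases. The response element core of the Tap1 window therefore also lies 337 to 345 bases before the start site of Psmb9, outside its window. All 4 genes of this block rose. Of the 5 nearest measured genes on each side, 4 were higher, against 17.1% of all genes. All 4 were class II genes, each less than 2-fold higher: RT1-DMa by 0.51, RT1-DMb by 0.47, RT1-Da by 0.42 and RT1-Db1 by 0.33. RT1-Ba (0.08), RT1-Bb (0.04), Btnl3 (-0.0029), Col11a2 (-0.08) and Rxrb (-0.10) did not pass. Only Brd2 fell, by 0.36 (adjusted p = 0.0112 from limma), 1 of 10 neighbours against 23.3% of all genes. The rise was thus not shared by all neighbours, and Psmb8 and Psmb9 were the only 2 of these 14 genes past 2-fold.

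**Figure D3:**
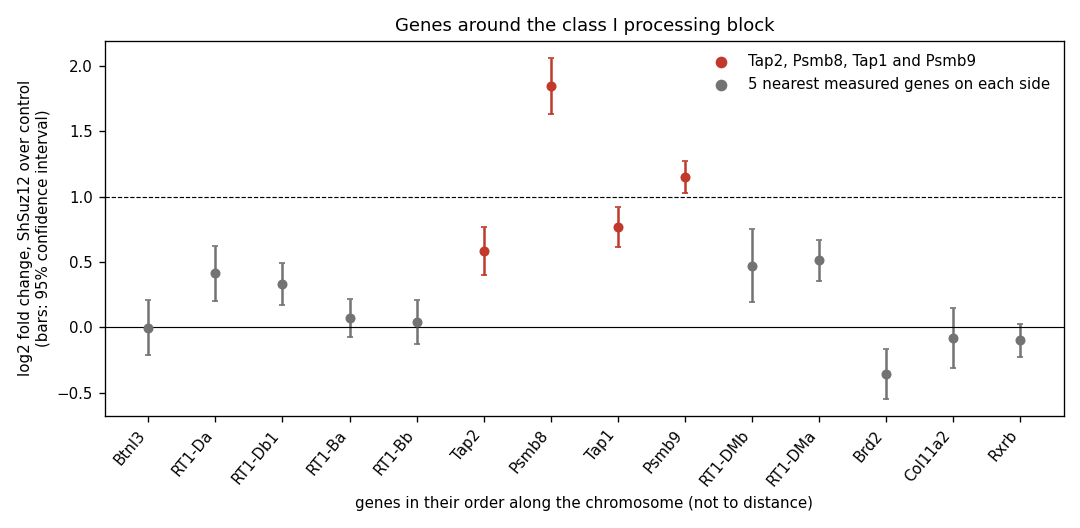
Log2 fold change of ShSuz12 over control cells (y axis, bars for 95% confidence intervals) for Tap2, Psmb8, Tap1 and Psmb9 in red and the 5 nearest measured genes on each side in grey, in chromosomal order along the x axis and not to distance. Psmb8 at 1.85 and Psmb9 at 1.15 stand above the dashed 2-fold line, and the grey genes lie between -0.36 and 0.51.

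Class II molecules present peptides to CD4 T cells and are assembled in other compartments. Of 13 listed genes of this route 8 were measured, 5 were higher (the 4 above and Cd74, the invariant chain gene, by 0.25), against 17.1% of all genes, and the median was 0.29. Most of them were dim, and Cd74 lay at the 17.6th percentile of the control arrays.

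Transcriptional regulators of class I genes moved both ways. Of 17 measured, 6 rose and 6 fell (adjusted p under 0.05 from limma), against 17.1% and 23.3% of all genes, and the median was -0.12. Irf1, an activator of Tap1, Psmb9 and B2m, read 8.54, 8.64 and 8.56 in control and 9.10, 9.06 and 9.01 in ShSuz12 cells, a rise of 0.48 (adjusted p = 3.46e-04 from limma). Nlrc5, the class I transactivator, read 3.95, 4.14 and 4.02 against 4.31, 4.66 and 4.49, a rise of 0.45 (adjusted p = 0.00769 from limma). Irf1 was well within the range of the array, but Nlrc5 was dim, at the 16.7th percentile of the control arrays. Rfx5, a subunit of the factor that Nlrc5 binds, read 10.14, 10.24 and 10.18 against 9.94, 9.92 and 9.95 and fell by 0.25 (adjusted p = 0.00762 from limma). Neither Irf1, Nlrc5 nor Rfx5 had values that overlapped between the groups. The largest rise of the list was that of Irf8, by 0.92, and Stat2, Irf9 and Relb rose by 0.60, 0.48 and 0.34. Irf2, Nfkb1, Nfyc, Nfyb and Nfya fell by 0.18 to 0.29. None of the 17 reached 2-fold.

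Interferons and their receptors did not show a common change. The 11 genes of this list had a median of -0.02. Ifngr2, a chain of the interferon gamma receptor, rose by 0.33, and Socs3, an inhibitor of cytokine signalling, by 0.20, whereas Ifngr1, the other chain, fell by 0.38. Ifng (-0.11) and Ifnb1 (-0.21) did not pass and were dim, at percentiles 3.80 and 21.2 of the control arrays. Ifnar1, Ifnar2, Jak1, Jak2, Tyk2 and Socs1 did not pass either, with values between -0.14 and 0.12.

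**Figure D4:**
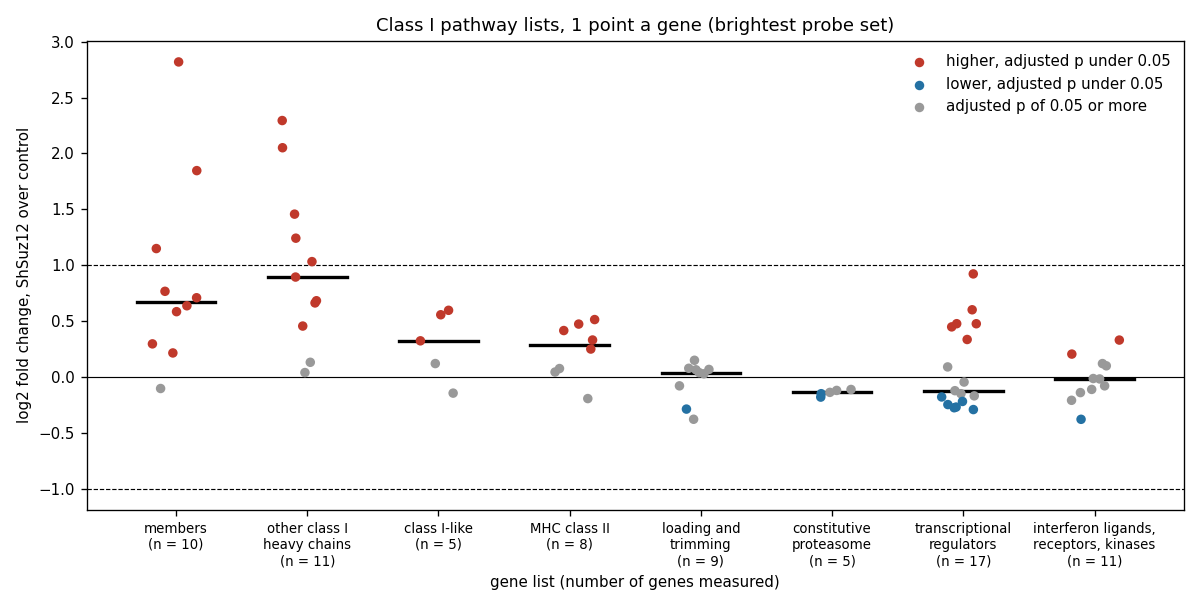
Log2 fold change of ShSuz12 over control cells (y axis) for each measured gene of 8 lists of the class I route (x axis), 1 point a gene at its brightest probe set, with black bars for medians, red for genes that rose and blue for genes that fell with an adjusted p under 0.05 from limma, and dashed lines at 2-fold. The medians were 0.67 for the 10 genes described first and 0.89 for the other heavy chains, and lay between -0.14 and 0.04 for loading, constitutive proteasome, regulator and interferon genes.

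Correlations over all probe sets were 0.997 to 0.998 within groups and 0.979 to 0.980 between them, and no array stood apart. Of 10 epithelial markers 2 fell, against 23.3% of all genes, and 2 rose, against 17.1%. Cdh1 and Krt8 were bright (percentiles 99.3 and 90.2 of the control arrays) but fell by 0.76 and 0.41. Cdx2 and Krt19 rose by 1.56 and 1.19, both at least 2-fold, against 3.82% of all genes. Vil1 (-0.07) and Cdx1 (0.13) did not pass. Epcam, Krt18, Cldn7 and Fabp2 did not pass either and lay at or below the 15.8th percentile in both groups. The fibroblast markers that moved with the class I genes were Lum, Col1a2, Col3a1, Pdgfrb and Dcn, and the mean level of the list ran from 7.54 to 7.63 in control and from 8.89 to 8.91 in ShSuz12 cells. Their other markers Col1a1, Pdgfra and Thy1 did not pass. Leukocyte markers had a mean level of 5.20 to 5.25 in control and 5.07 to 5.15 in ShSuz12 cells, with 3 of 8 lower (Cd68 at -0.32, Itgam at -0.25 and Cd14 at -0.23), against 23.3% of all genes. Ptprc, the defining gene of leukocytes, lay at percentiles 13.6 and 10.1 of the control and ShSuz12 arrays, whereas Cd14 was bright at percentiles 92.6 and 91.6. Endothelial markers had mean levels of 4.27 to 4.43 and 4.47 to 4.61, with Kdr higher by 0.78 among 4 measured, against 17.1% of all genes higher.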

How the data were processed

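RNA from 3 control and 3 ShSuz12 IEC-6 experiments was measured on Affymetrix rat genome arrays. The log2 values deposited by the authors came from RMA in FlexArray 1.6.1, which corrects background, brings the arrays to 1 distribution and summarizes each probe set. No RMA version was named. Such values compress low signals, so changes of dim probe sets are understated, and transcript levels of different genes were not compared, since brightness and percentiles describe probe sets and not amounts of transcript.

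After 57 control probe sets were removed, 31042 were fitted with limma 3.58.1 (lmFit, eBayes) under R 4.3.3, two-sided, with Benjamini-Hochberg adjustment over all of them. Calls needed an adjusted p under 0.05 and, where stated, 2-fold. Precision is limited by the number of arrays, and p-values measure the spread between experiments of 1 cell population per group. Groups came from the sample titles. Symbols came from the platform annotation (20826 probe sets had 1 symbol, 436 several, 9780 none listed), and the GRCr8 gene table altered 0 of them. In lists a gene was represented by the probe set with the highest mean. Percentiles are ranks among all probe sets.

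Members and lists were chosen with earlier results of these data known. Every member was named at every probe set, with Suz12, the constitutive catalytic subunits, Nlrc5, Irf1, Rfx5, and, of each list, genes called at 2-fold and those counted in groups of 5 or fewer, up to 6 by size. Other names from the lists were chosen after their values were seen. Psmb6 has no probe set of a single symbol, so its pair with Psmb9 was not analysed here, and protein sequences were not used here. Replicate numbers were not used to pair the samples in the main fit. Deviations of same-numbered arrays from their group means correlated at 0.02, -0.04 and -0.06. Whether the experiments were paired is not settled by these values, since a weak shared effect could be missed, nor by the titles. As alternatives, the fit was replaced by the methods' t-test or by eBayes with a trend and robust setting, the values were centred on array medians or quantile normalized again, probe sets below the 40th or 60th percentile were dropped, genes were reduced to 1 probe set or to the mean of all, replicate numbers served as a block, and each array was omitted in turn. Promoter windows were searched with Python 3.11.15, and figures drawn with matplotlib 3.10.9. The fit was tested on simulated data with known changes.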

Additional observations from a re-analysis of the deposited data

How the results depend on the processing

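The count of 7 probe sets at least 2-fold higher stayed at 7 with the methods' t-test, both percentile filters, the second quantile normalization, the trend and robust fit and each omitted array (7 to 7), and was 6 after median subtraction, which lowers every change by 0.10 and took the dimmer B2m probe set to 0.996. With 1 probe set a gene it was 3, since RT1-CE5 then counts once and B2m is represented by its brighter probe set. The count higher at any size was 13 for each omitted array 12 after median subtraction, where Psme2 was lost, 12 with the 60th percentile filter and 9 with 1 probe set a gene, where fewer were tested. The count lower at any size, 0 in the report, was 3 after median subtraction (the dimmer Tap1 probe set at -0.18, Psmb10 at -0.20 and the dimmer Psme1 probe set at -0.25), 1 after the second quantile normalization and 0 to 1 when an array was omitted. The 1 came without control replicate 1 and was the dimmer Psme1 probe set; the cause of these 2 changes was not tested. The fifth RT1-CE5 probe set turned to -0.064 after median subtraction and ran from -0.021 (without control replicate 1) to 0.075 over the omitted arrays, never past the threshold. Of 7 probe set pairs, 6 differed in the report, 5 to 6 when an array was omitted, 7 after the second quantile normalization, 4 with the 40th and 3 with the 60th percentile filter, which kept 15 and 13 of the 17 probe sets.

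With the replicate number as a block, the counts were 7 higher, 13 higher at any size and 6 pairs, and no call changed. Paired by number, the change in the Psmb8 and Psmb5 difference was 2.00 (exact permutation test, p = 0.25, the smallest that 3 pairs allow) and that of Psmb10 and Psmb7 0.03 (exact permutation test, p = 0.75). Over the omitted arrays these 2 differences ran from 1.89 to 2.07 and from 0.01 to 0.07. With 3 arrays a group and no scanner files used here, dim probe sets such as the fifth of RT1-CE5 and the second of Tap1 bound changes poorly.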
